A study of Auxenochlorella pyrenoidosa with 8 samples.

Results

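The change in transcript levels between 1 h and 4 h of growth in air was followed in Auxenochlorella pyrenoidosa strain FACHB-9, a unicellular freshwater green alga also known as Chlorella pyrenoidosa. A gene was included when its RPKM (reads per kilobase, relative to the library's total reads) averaged 1 or more over the 2 libraries of 1 h and the 2 libraries of 4 h, which held for 9265 of the 10283 genes in the deposited table. The gene just inside this limit had a mean of 1.001 RPKM and the gene just outside it 0.999 RPKM. All cultures had grown in light on 5% CO2 for 5 days before plain air replaced the gas. Whole cells were sampled at 0 h, before any time in air, and at 1 h, 4 h and 24 h, with 2 libraries at each time, so that the 4 libraries compared here are part of 8. All groups share the strain and the preculture, and no culture kept on 5% CO2 after 0 h was analysed here, so time in air and time in culture cannot be told apart. The labels do not say which libraries of different times came from the same flask.

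Green algae take up CO2 for the Calvin cycle through the enzyme Rubisco, which works poorly when CO2 is scarce. When the supply falls, they are known to induce a carbon-concentrating mechanism, in which bicarbonate transporters and carbonic anhydrases raise the CO2 around Rubisco, and to adjust photorespiration and light harvesting. The labels place the samples in such a fall of CO2, and the question of the 4 h against 1 h comparison is which transcripts were still on the move after the first hour and which already stood at their 4 h level. The files pair gene numbers with no name or product, so genes are given by number and position, and no count can be given for the carbon-concentrating mechanism or any other pathway list. The RPKM values were made with the full span of each gene, introns included, so levels are comparable between genes only on that scale.

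Depth and agreement of the libraries set how far these levels can be read. Reads assigned to genes, recovered from the RPKM values, came to 21375129 and 18314005 in 1 h libraries 1 and 2 and to 18489074 and 35463138 in 4 h libraries 1 and 2. On the log2(RPKM + 1) scale the median SD between the 2 libraries of a group was 0.168 at 1 h and 0.0822 at 4 h. Over all 10283 genes the 4 h libraries correlated at r = 0.995 and the 1 h libraries at r = 0.967. Both 1 h libraries were closer to a library of another time than to each other: number 2 to the library labelled 24 h number 1 (r = 0.994) and number 1 to the library labelled 0 h number 2 (r = 0.986). Number 1 was nearly as close to the library labelled 24 h number 2 (r = 0.985), whereas the 24 h libraries correlated with each other at r = 0.951. The points behind each r are genes of the same libraries, not independent replicates. The results below rest on the 1 h labels as given, and the main counts and named genes are also given without each 1 h library.

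Most genes were close to their 4 h level after 1 h. The log2 difference, 4 h minus 1 h, had a median of -0.10 over the 9265 genes, and its 5th and 95th percentiles were -0.82 and 0.48. The difference was under 1.2-fold for 5350 genes (57.7%) and under 1.5-fold for 7984 genes (86.2%). It was 2-fold or more for 403 genes, of which 131 were higher and 272 lower at 4 h, and 4-fold or more for 53 genes, of which 38 were higher and 15 lower. The rare large differences were therefore mostly rises and the more common moderate ones mostly falls.

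To separate genes whose 1 h level lay near the 4 h level from genes whose change was not resolved, 2 tests were taken from the same limma fit. A gene was called as still moving at a Benjamini-Hochberg adjusted p under 0.05 for any difference between 4 h and 1 h. It was called as within 2-fold when a pair of one-sided tests placed the difference between -1 and 1 on the log2 scale, again at an adjusted p under 0.05. By these rules 61 genes (0.658%) were still moving, 23 upward (0.248%) and 38 downward (0.41%), and 7230 genes (78%) were within 2-fold. The remaining 1974 genes (21.3%) passed neither test and are called undetermined. No gene passed both tests (0 genes). The log2 differences of the genes within 2-fold ran from -0.66 to 0.63, and their test does not ask whether a gene had moved before 1 h. Without 1 h library 1 the genes within 2-fold numbered 5899, and without 1 h library 2 they numbered 5198.

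**Figure D1:**
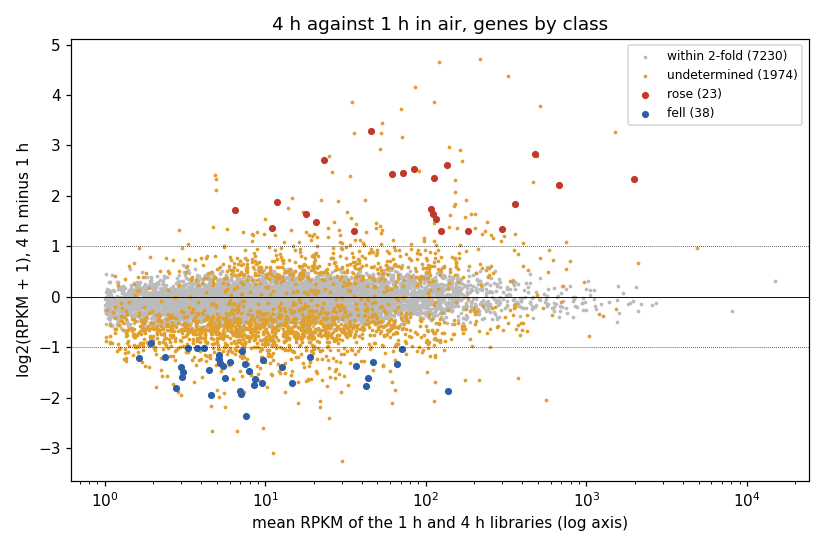
Each point is 1 of the 9265 genes, with the mean RPKM of the 1 h and 4 h libraries on a log x axis and the difference of the log2(RPKM + 1) group means, 4 h minus 1 h, on the y axis. Dotted lines mark 2-fold; the 23 genes that rose lie mostly to the right of the 38 that fell, and the largest differences of all belong to undetermined genes.

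The rising and falling genes were alike in level before the change to air and far apart at 4 h. Their median was 13.96 and 13.2 RPKM at 0 h, beside 14.8 RPKM for all tested genes. At 1 h the medians were already apart, at 36.8 RPKM for the rising and 10.6 RPKM for the falling genes, beside 13.8 RPKM for all tested genes. At 4 h the 23 rising genes had a median of 167 RPKM and the 38 falling genes 2.72 RPKM, beside 12.5 RPKM for all tested genes. When genes were put into 4 bins of nearly equal size by their mean over the 4 libraries, the highest bin (median 66.8 RPKM) held 17 of the rising and 7 of the falling genes, and the lowest (median 2.94 RPKM) held 0 rising and 15 falling genes. The mean used for the bins includes the 4 h libraries, so the rise and the fall themselves move genes between bins. The share of genes within 2-fold was about even over these bins, at 79.5%, 78.2%, 78.8% and 75.6% from the lowest to the highest. The rising genes together took 0.36% and 0.47% of all reads in 1 h libraries 1 and 2 and 1.66% and 1.61% in 4 h libraries 1 and 2. The falling genes went from 0.181% and 0.188% of the reads to 0.0574% and 0.0579%. The genes were split by the direction of their difference between 1 h and 4 h, so the distance at 4 h and these shares follow in part from that choice.

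Of the rising genes, g5138 had the largest log2 difference. Its model has 12 exons and 1167 bp of coding sequence on the plus strand of scaffold00704 (508519 to 513223). It stood at 4.52 and 12.3 RPKM in 1 h libraries 1 and 2 and at 78.2 and 86.9 RPKM in 4 h libraries 1 and 2. Both 4 h libraries were far above both 1 h libraries. The group means were 8.40 ± 5.49 and 82.5 ± 6.13 RPKM (SD, n = 2 each), 9.83-fold in the means, and the log2 difference was 3.29 (SE 0.38, limma adjusted p = 0.0201). At 0 h the gene had 1.48 and 1.01 RPKM, so that both 1 h libraries already lay above both 0 h libraries. These 0 h levels rested on 116 and 110 reads, the 1 h levels on 454 and 1058.

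The most abundant rising gene was g4052, a short model of 3 exons and 231 bp of coding sequence on the plus strand of scaffold00514 (2035313 to 2036037). Its level was 511 and 823 RPKM in the 1 h libraries and 3343 and 3238 RPKM in the 4 h libraries. The means were 667 ± 221 and 3290.3 ± 74.0 RPKM (SD, n = 2 each), 4.93-fold apart, with a log2 difference of 2.34 (SE 0.27, limma adjusted p = 0.0201). It had started from 147 and 180 RPKM at 0 h. The groups did not overlap at any of these steps. The calls of g5138 and g4052 were each lost in 8 of 24 settings. Without 1 h library 1 their log2 differences were 2.65 and 2.00, each with a limma adjusted p of 0.0792, and without 1 h library 2 they were 3.92 and 2.69 and both were called.

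The gene models on one side of g4052 were also higher at 4 h, and the nearest of them passed the test. This model, on the minus strand of the same scaffold (2032304 to 2033887) with 1425 bp between the models, stood at 66.4 and 194 RPKM in the 1 h libraries and 983 and 683 RPKM in the 4 h libraries (log2 difference 2.84, SE 0.45, limma adjusted p = 0.0496). This was the only adjacent pair among the 61 genes. The model after that (2025313 to 2029337, minus strand) had 11.9 and 312 RPKM at 1 h and 925 and 819 RPKM at 4 h. The model next in line (2019054 to 2024777, minus strand) had 21.6 and 43.4 RPKM at 1 h and 246 and 246 RPKM at 4 h. Neither of these last 2 models passed the test (limma adjusted p = 0.373 and 0.0667), and in each of the 4 models both 4 h libraries lay above both 1 h libraries. The first model on the other side of g4052 (2042463 to 2044737, plus strand) had 15.5 and 18.0 RPKM at 1 h and 15.8 and 11.5 RPKM at 4 h and was undetermined. The second on that side (2045504 to 2048617, minus strand) was among the falling genes, with 2.92 and 2.77 RPKM at 1 h and 0.956 and 1.12 RPKM at 4 h (log2 difference -0.92, SE 0.15, limma adjusted p = 0.0494). This neighbourhood was looked at after its values had been seen, and whether the models are copies of each other that share reads was not tested.

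Among the falling genes that averaged 10 RPKM or more over the 4 libraries, g6984 had the largest log2 difference and was also the most abundant. It has 4 exons and 951 bp of coding sequence on the minus strand of scaffold01003 (21867 to 23610). Its levels were tight within each time, at 208 and 226 RPKM in the 1 h libraries and 59.0 and 57.9 RPKM in the 4 h libraries. The 1 h mean was 217 ± 12.7 RPKM and the 4 h mean 58.4 ± 0.803 RPKM (SD, n = 2 each), with a log2 difference of -1.87 (SE 0.18, limma adjusted p = 0.0201). At 0 h it had 417 and 418 RPKM, so that both 1 h libraries already lay below both 0 h libraries. Its call was lost in 9 of 24 settings, among them the fits without 1 h library 1 (log2 difference -1.93, limma adjusted p = 0.0792) and without 1 h library 2 (-1.81, limma adjusted p = 0.0551).

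Next in abundance was g1242, with 2 exons and 297 bp of coding sequence on the minus strand of scaffold00092 (996238 to 997037). Unlike g6984 it had 97.2 and 92.7 RPKM at 0 h and still 93.9 and 97.5 RPKM in the 1 h libraries. In the 4 h libraries it had 46.7 and 45.8 RPKM. The 1 h mean was 95.7 ± 2.54 RPKM and the 4 h mean 46.3 ± 0.635 RPKM (SD, n = 2 each), and the log2 difference was -1.03 (SE 0.16, limma adjusted p = 0.0494). That call is at the edge of the threshold and was lost in 18 of 24 alternative settings, among them the fits without 1 h library 1 (limma adjusted p = 0.151) and without 1 h library 2 (0.209), while the size of the log2 difference stayed between -1.06 and -0.90.

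**Figure D2:**
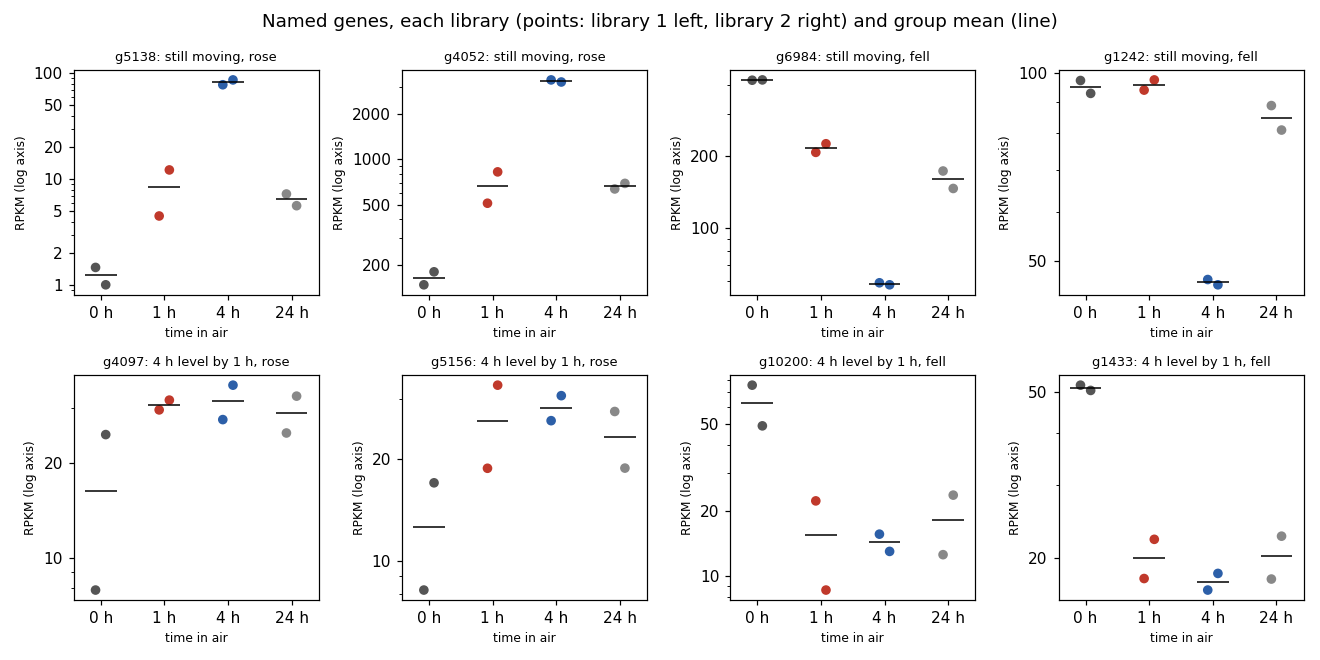
RPKM (log axis) of the 8 named genes in each of the 8 libraries, by time in air. Points are libraries, with library 1 left of library 2, and lines are group means; the upper row holds genes still moving after 1 h and the lower row genes at their 4 h level by 1 h.

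Most rising genes showed the pattern of g5138 and g4052. In 16 of 23, these 2 included, the mean at 1 h was already at least 1.5-fold above that at 0 h, and in 7 it was within 1.5-fold of it. The 16 had a median of 21.7 RPKM at 0 h, 44.6 at 1 h and 180 at 4 h, and the 7 had 11.7, 10.7 and 30.96 RPKM. In 22 of 23 the log2 step from 1 h to 4 h was larger than that from 0 h to 1 h, and the log2 differences between 4 h and 1 h ran from 1.30 to 3.29 with a median of 1.84. Both steps use the same 1 h libraries, and the genes were chosen by the later step, so these counts describe the genes and test nothing.

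For the falling genes the pattern of g1242 was the more common. In 26 of 38 the 1 h mean was within 1.5-fold of the 0 h mean, and in 12 it was already at least 1.5-fold lower. The 26 had a median of 11.2 RPKM at 0 h, 10.6 at 1 h and 3.51 at 4 h, whereas the 12 had 24.0, 9.90 and 2.14 RPKM. Both 1 h libraries lay below both 0 h libraries in 22 genes, above both in 5, and overlapped them in 11. The matching shares over all tested genes are not given here, so these counts describe the falling genes alone. The log2 differences between 4 h and 1 h ran from -2.35 to -0.92 with a median of -1.38, and 1 gene fell by 4-fold or more, beside 10 of 23 that rose by that much.

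The 4 h level stood apart from every other time in these genes. In all 23 rising genes both 4 h libraries were above each of the other 6 libraries, and in all 38 falling genes both were below each of them. These genes were called for a difference between 4 h and 1 h, so distance from the 1 h libraries was part of the choice. Over all tested genes, both 4 h libraries were above both 1 h libraries in 1600 (17.3%) and below both in 3453 (37.3%). The share of all tested genes clear of all 6 other libraries is not given here. The median of the rising genes was 13.9 RPKM in 0 h library 1 and 13.997 RPKM in 0 h library 2. In the same order of libraries it was 24.6 and 45.5 RPKM at 1 h, 163 and 159 RPKM at 4 h, and 27.97 and 27.96 RPKM at 24 h. The median of the falling genes was 13.5 and 13.6 RPKM at 0 h, 10.04 and 10.8 RPKM at 1 h, 2.86 and 2.80 RPKM at 4 h, and 9.48 and 8.79 RPKM at 24 h. The 24 h mean was within 1.5-fold of the 1 h mean in 23 of 23 rising and 37 of 38 falling genes. The same share over all tested genes is not given here, so this count describes the called genes alone. A gene whose 1 h and 24 h groups are each tight passes the test more easily. Over all genes, 1 h number 2 was close to 24 h number 1 and 1 h number 1 to 24 h number 2, as given above. The part of this closeness in the return was not tested.

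**Figure D3:**
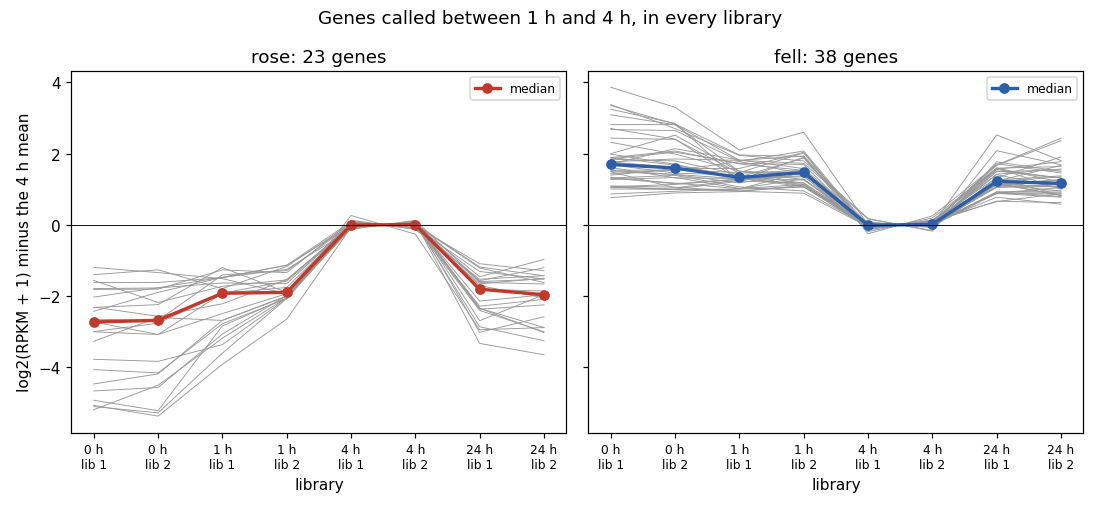
Log2(RPKM + 1) of each gene called between 1 h and 4 h, relative to its own 4 h mean, in each of the 8 libraries (23 genes that rose, 38 that fell). Thin grey lines join the values of a gene and the thick line joins the medians; the 4 h libraries stand beyond all others, and the 24 h libraries return to about the 1 h level.

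The number of calls depended on the libraries and settings far more than the levels did. Of the 61 adjusted p-values, 18 were under 0.03 (8 rises and 10 falls) and 23 lay at 0.049 or above. With a filter on the mean of all 8 libraries, 38 genes were called. When the fit held no libraries but those of 1 h and 4 h, limma called 0 genes (1850 at an unadjusted p under 0.05), and when it left out the 24 h group it called 112, 60 of them among the 61. Without 1 h library 1, without either 0 h library and without either 4 h library, limma called 0 genes, at 1018, 1413, 1413, 545 and 607 genes with an unadjusted p under 0.05, in the order 1 h library 1, 0 h libraries 1 and 2, and 4 h libraries 1 and 2. It called 17 genes without 1 h library 2 (16 rises and 1 fall) and 112 without either 24 h library. Voom on the recovered reads called 24 genes, all 24 among the 61.

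The balance of rises and falls also moved with the scaling and the pseudocount. The median gene was lower at 4 h by 0.10 on the log2 scale (-0.10), and relative to that median g5138 and g4052 stood at 3.38 and 2.44 and g6984 and g1242 at -1.77 and -0.93. In the deposited scaling 62.3% of the called genes fell. Under a trimmed mean of log ratios the called genes were 26 rises and 22 falls (45.8% falls), under a median of ratios 25 and 22 (46.8% falls), under quantile normalization 15 and 15 (50% falls), and in voom 14 and 10 (41.7% falls). With a pseudocount of 0.1 RPKM the called genes were 22 rises and 55 falls (71.4% falls), and with 5 RPKM 21 and 13 (38.2% falls). The smallest called difference in the main fit was 0.92 in size, a lower limit that the test itself helps to set. The part of the shift of the median gene in the called falls was not tested.

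In the structure of their models the falling genes were shorter in the median than all tested genes, but this was not particular to them. The rising genes had a median of 7 exons, 1167 bp of coding sequence and a span of 3334 bp, and the falling genes 6 exons, 778.5 bp and 2310 bp, beside 7 exons, 1011 bp and 2954 bp over all tested genes. The 31 genes described below that had fallen to their 4 h level by 1 h had 6 exons, 783 bp and 2294 bp. Undetermined genes had 7 exons, 930 bp and 2635 bp. Of the rising genes 0 of 23 and of the falling genes 3 of 38 had their coding sequence in a single exon, beside 1.46% of all tested genes. The 23 rising genes lay on 18 scaffolds and the 38 falling genes on 22. None of the 61 gene models overlapped another model (0 of 61), and the share over all tested genes is not given here. Whether transcripts run past these predicted models or share reads with other genes was not tested.

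Few genes could be placed as having moved by 2-fold or more in the first hour and then stayed near their new level. They were taken as genes called within 2-fold between 1 h and 4 h whose 1 h and 4 h libraries all lay on one side of both 0 h libraries, with at least 2-fold between the 1 h and 0 h means. This held for 33 genes, of which 31 had fallen (0.335% of tested genes) and 2 had risen (0.0216%). Undetermined genes could not enter by this rule, whatever their step in the first hour. No test stands behind this selection, and 0 genes passed the test of 1 h against 0 h over all genes (0%; limma, smallest adjusted p = 0.146, 937 genes at an unadjusted p under 0.05). The rest of the genes within 2-fold had either not left their 0 h level by that measure or had not left it far enough. The number depended on the distance asked for. At 1.5-fold between the 1 h and 0 h means, the step used above to split the called genes, there were 454 such genes, 343 falls and 111 rises.

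The clearest of them was g1433, with 7 exons and 1092 bp of coding sequence on the minus strand of scaffold00128 (376436 to 378729). It had 52.0 and 50.5 RPKM at 0 h, 17.9 and 22.2 RPKM at 1 h and 16.8 and 18.4 RPKM at 4 h. The 1 h and 4 h libraries overlapped, and all 4 lay far below those of 0 h. Its log2 difference between 4 h and 1 h was -0.17 with a 90% interval of -0.53 to 0.19 (limma adjusted p = 0.00588 for lying within 2-fold), and this call was kept in 24 of 25 settings, the exception being a margin of 1.5-fold. At 24 h it had 17.8 and 22.6 RPKM.

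The other named gene that fell was g10200, with 7 exons and 1200 bp of coding sequence on the minus strand of scaffold01332 (133863 to 137270). It had 75.7 and 49.2 RPKM at 0 h, 22.2 and 8.65 RPKM at 1 h and 15.6 and 13.0 RPKM at 4 h. Its 1 h libraries lay on either side of the 4 h pair, so the small log2 difference of 0.03 has a wide 90% interval of -0.83 to 0.89 (limma adjusted p = 0.0457 for lying within 2-fold). The call was lost in 15 of 25 settings, among them the fits without either 1 h library.

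The 2 genes that had risen were less certain. g4097, with 5 exons and 297 bp of coding sequence on the plus strand of scaffold00514 (2289930 to 2291424), had 7.89 and 24.6 RPKM at 0 h, 29.5 and 31.7 RPKM at 1 h and 27.5 and 35.4 RPKM at 4 h. g5156, with 9 exons and 1281 bp on the plus strand of scaffold00704 (639167 to 643096), had 8.20 and 17.0 RPKM at 0 h, 18.8 and 33.1 RPKM at 1 h and 26.0 and 30.8 RPKM at 4 h. In both genes 0 h library 2 came close to the lowest later library, and 0 h library 1 made most of the distance. Their log2 differences between 4 h and 1 h were 0.03 (90% interval -0.81 to 0.87) and 0.17 (90% interval -0.55 to 0.89), with limma adjusted p of 0.0419 and 0.0433 for lying within 2-fold. Each call was lost in 12 of 25 settings, among them the fits without either 1 h library.

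The 31 genes that had fallen ranged from 1.24 to 242 RPKM over the 1 h and 4 h libraries. Their median was 30.1 and 14.96 RPKM in 0 h libraries 1 and 2. It was 10.2 and 7.82 RPKM in the 1 h libraries, 9.24 and 7.96 RPKM in the 4 h libraries and 9.27 and 9.38 RPKM in the 24 h libraries. The log2 step from 0 h to 1 h had a median of -1.14, and the difference between 4 h and 1 h lay between -0.40 and 0.44. In all 31 both 24 h libraries also lay below both 0 h libraries, and the 24 h mean was within 1.5-fold of the 4 h mean. The choice of genes with high 0 h libraries favours later libraries below them. Neither count is given here over all tested genes, so they are a description. In 30 of 31 the 0 h library 1 stood higher than 0 h library 2. The selection depended on the 0 h libraries: without 0 h library 1 there were 15 such genes, 8 of them among the 33, and without 0 h library 2 there were 309, 199 falls and 110 rises. Without 1 h library 1 there were 91 and without 1 h library 2 there were 20, and without 4 h library 1 or 2 there were 6 and 8.

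**Figure D4:**
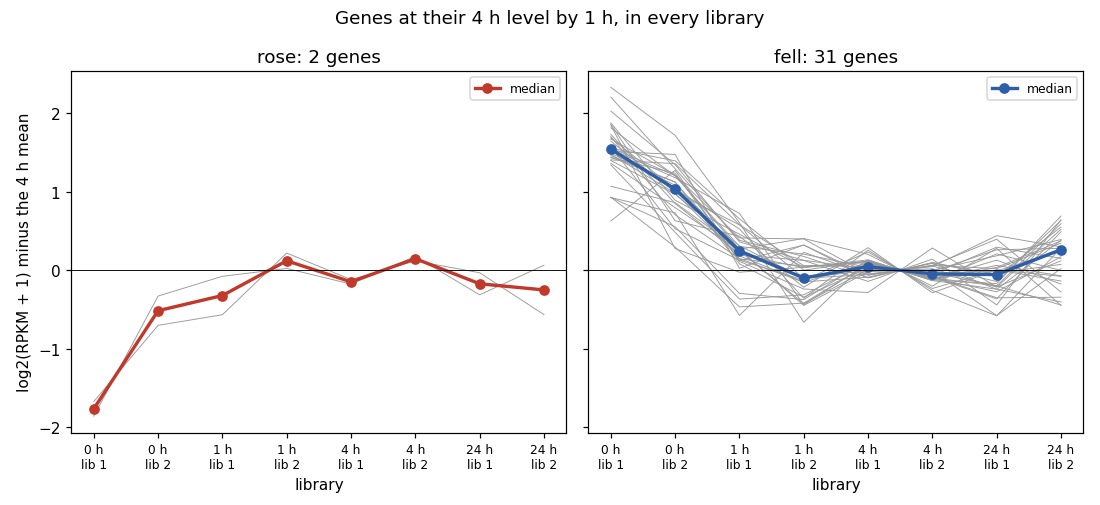
Log2(RPKM + 1) relative to the gene's own 4 h mean in each of the 8 libraries, for the 2 genes that had risen and the 31 that had fallen to their 4 h level by 1 h. Thin grey lines join the values of a gene and the thick line joins the medians; most of the drop is between the 0 h and 1 h libraries, and 0 h library 1 stands above 0 h library 2 in 30 of the 31.

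In the 1974 undetermined genes the 1 h libraries were further apart in the median than in the genes within 2-fold, though in most of them less than 2-fold apart. The median distance between 1 h libraries 1 and 2 was 0.51 on the log2 scale in this class and 0.20 in the genes within 2-fold, and the libraries were 2-fold or more apart in 21.1% and 0.373% of the genes. The spread enters both tests, so the classes differ in it by construction. Of the undetermined genes 343 differed by 2-fold or more between 4 h and 1 h, 108 of them higher and 235 lower at 4 h. The groups did not overlap in 103 of the 108 and 220 of the 235. Over all tested genes, no overlap together with a 2-fold difference was seen for 126 rises (1.36%) and 257 falls (2.77%). These were 126 of the 131 genes 2-fold or more higher at 4 h and 257 of the 272 that were lower. Lack of overlap was thus about as common among all genes with a difference of that size as in this class.

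The largest difference of all was in this class, with 2.06 and 73.8 RPKM in 1 h libraries 1 and 2 and 373 and 420 RPKM in the 4 h libraries (log2 difference 4.71, SE 1.77, limma adjusted p = 0.332). The largest fall had 37.7 and 73.9 RPKM at 1 h and 4.28 and 5.09 RPKM at 4 h (log2 difference -3.25, SE 1.06, limma adjusted p = 0.26). In both genes the 4 h libraries were clear of the 1 h libraries, and the 1 h libraries were far apart from each other.

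The 2 libraries labelled 1 h were at different distances from the 4 h level in the most induced genes. A total of 32 tested genes stood at least 3 log2 units under their 4 h mean in 1 h library 1, and 1 gene did so in 1 h library 2. In these 32 genes the median distance from the 4 h mean was -3.88 in library 1 and -1.84 in library 2, and library 2 was the nearer to 4 h in 32 of 32. Their median distance was -4.74 and -4.59 in 0 h libraries 1 and 2, and -2.53 and -3.82 in 24 h libraries 1 and 2. The 32 genes thus stood a little above their 0 h level in the library labelled 1 h number 1 and more than midway to the 4 h level in the library labelled 1 h number 2, and at 24 h the library numbered 1 was the nearer to 4 h in 28 of them. Of the 32 genes, 5 were among the 23 that passed the test and 27 were undetermined. The genes were selected on 1 of the libraries, so the counts are a description without a test. Over all 108 undetermined genes that were 2-fold or more higher at 4 h, library 2 was the nearer to the 4 h level in 62 and library 1 in 46. For the 235 that were 2-fold or more lower at 4 h, library 1 was the nearer to the 4 h level in 170 and library 2 in 65.

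**Figure D5:**
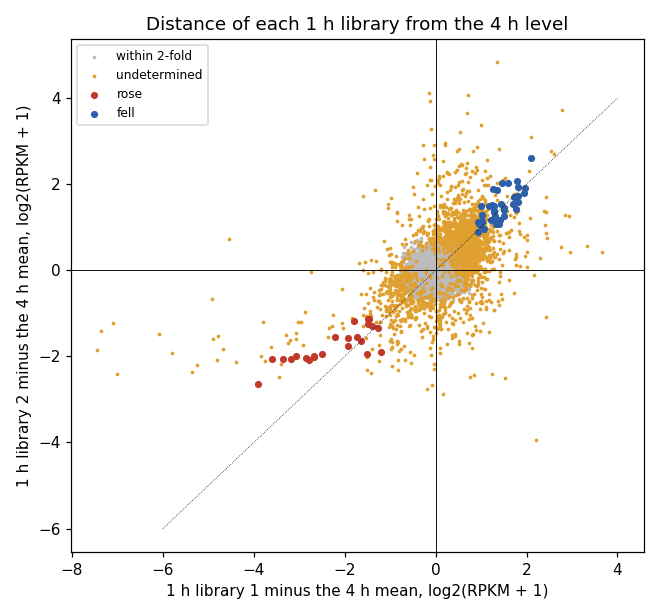
Each of the 9265 genes by the distance of 1 h library 1 (x axis) and 1 h library 2 (y axis) from the 4 h mean, in log2(RPKM + 1) units; on the dotted line the libraries agree. The 32 genes that are 3 or more units to the left lie above the line, and each of the 61 called genes has both 1 h libraries on the same side of its 4 h level.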

How the data were processed

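Messenger RNA libraries of 4 times with 2 libraries each were used. The authors deposited RPKM values per gene and library, per the file headers, and AUGUSTUS gene models with start and end positions counted from 1. TopHat and HTSeq are named in the submitters' processing notes. For versions, strand settings and the assembly name: not given in the sources used here. Taking end minus start as the length of a gene, 100% of the RPKM values of every library turned into whole reads within 0.01 reads, so depth is known and a value rests on a count of reads. Groups follow the sample titles. Per the design text the 2 libraries of a time are biological replicates.

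From the deposited RPKM, log2(RPKM + 1) was computed. The 9265 genes that averaged 1 RPKM or more in the 1 h and 4 h libraries were fitted with limma 3.58.1 in R 4.3.3, on all 8 libraries in 4 groups, with an intensity trend and robust moderation (residual degrees of freedom 4, prior 3.66 in the median gene). The contrast was 4 h minus 1 h, two-sided, with Benjamini-Hochberg adjustment over the 9265 genes. Lying within 2-fold was tested by a pair of one-sided moderated tests from the same fit. Fold changes on this scale understate the change of low genes. The procedure was tested on simulated data. Named genes were, per direction, the largest log2 difference and the highest mean among called genes averaging 10 RPKM or more with no overlap, and the 2 largest first-hour differences among genes at their 4 h level by 1 h. The members, tests and lists were chosen with earlier results of these data known. Lists by gene name could not be applied. Alternatives changed the pseudocount, filter, scaling, moderation, libraries, block, margin and test. Those leaving out 1 h and 24 h libraries together were added after seeing the data.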

Additional observations from a re-analysis of the deposited data

How the results depend on the processing

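The count of 61 called genes was within 1.5 times of itself in 4 of 24 settings. It was 34 with a pseudocount of 5 RPKM, 19 without a filter, 38 with a filter on all 8 libraries, 30 after quantile normalization, 33 without trend and robust moderation, 24 in voom, 112 without the 24 h group, 0 when nothing but the 1 h and 4 h libraries was fitted and 0 when limma's treat asked for more than 1.5-fold (232 at an unadjusted p under 0.05). Leaving out single libraries gave 0 to 112. With 1 h library 2 and 24 h library 1 left out 132 genes were called, 40 of them among the 61, and with 1 h library 1 and 24 h library 2 left out 395, 57 of them among the 61. In these fits the spread comes from fewer groups, and a lone library is assumed to vary like the others. With the library number as a replicate block limma called 0 genes (1167 at an unadjusted p under 0.05, smallest adjusted p = 0.0562). Deviations from the group means correlated at 0.11 between 1 h and 4 h libraries of the same number and at -0.73 between those of 1 h and 24 h. For 0 h the values were 0.02 with 1 h, 0.35 with 4 h and 0.08 with 24 h, and for 4 h with 24 h 0.16. Not every pair of groups exceeded 0.1, and the labels do not say what the number marks, so it was not taken as a pairing.

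The 7230 genes within 2-fold stayed within 1.5 times in 22 of 25 settings, with 4579 to 7571 when single libraries were left out, lowest without 4 h library 2. With a margin of 1.5-fold 0 genes passed in limma and with 3-fold 8693 did, so the class says nothing of changes under 2-fold. The 33 genes at their 4 h level by 1 h became 57 when nothing but the 1 h and 4 h libraries was fitted, 0 with the margin of 1.5-fold, 454 and 1 with 1.5-fold and 3-fold from 0 h, 158 without 1 h library 1 and 24 h library 2, and 6 to 309 with single libraries left out. The causes of these shifts were not tested. No named gene turned its direction (0 of 4 moving genes). These genes were chosen with no overlap between the 1 h and 4 h libraries, so leaving out a library could not turn it. A change of filter, moderation or block left the log2 difference as it was. The calls of g5138 and g4052 were each lost in 8 of 24 settings and that of g6984 in 9.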
